A study of Mus musculus with 15 samples.

Results

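The 32 genes described here build, regulate or export sterols and fatty acids, and they were followed across 15 RNA-seq libraries of mouse bone marrow progenitors. They were chosen by name, and all 32 symbols were found among the 23337 gene symbols of the files. Each of them passed the filter on low counts that left 15181 genes for testing. Sc4mol is the methylsterol monooxygenase gene now called Msmo1. By role they are 5 genes of sterol regulatory element binding protein (SREBP) control, 8 enzymes of the mevalonate and isoprenoid steps, 11 enzymes from squalene to cholesterol, the sterol carrier Stard4, 4 genes of fatty acid synthesis and 3 genes of sterol export. Of the export genes, Abca1 and Abcg1 remove sterol from cells, and Nr1h2 encodes a liver X receptor, a sensor of sterol. None of them synthesises sterol, and they are kept apart below.

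Cholesterol is made from acetyl-CoA through mevalonate, farnesyl diphosphate, squalene and lanosterol, and side branches of the same route supply isoprenoids. When sterol is scarce in the endoplasmic reticulum, Scap escorts the SREBP factors to the Golgi, where they are cut and released to switch on genes of sterol and fatty acid synthesis, and when sterol is plentiful Insig proteins hold Scap back. Excess sterol is sensed as oxysterol by the liver X receptors, which raise the exporters Abca1 and Abcg1. Trappc1 belongs to the TRAPP complexes, tethering factors of vesicle traffic to and through the Golgi.

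The groups were common myeloid progenitors (CMP, the multipotent step that feeds the myeloid lines) and granulocyte-monocyte progenitors (GMP, their descendants committed to granulocytes and monocytes), each sorted from mice with a Trappc1 knockout (KO) and from wild-type mice (WT), without treatment. Both were gated as lineage-negative, Sca1-negative, CD117-positive and CD34-positive, with high CD16/32 for GMP and low CD16/32 for CMP. There were 3 KO GMP, 4 WT GMP, 4 KO CMP and 4 WT CMP libraries, and the KO GMP libraries carried the numbers 1, 3 and 4. The sources used here do not give the strain, age or sex of the mice, nor how and in which cells Trappc1 was deleted. Nothing in the labels says that libraries came from separate mice, so the p-values rest on a spread that may be technical in part.

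Library totals ran from 61.3 to 120.3 M units, or 15.3 to 30.1 M fragments if 1 fragment is worth 4 units, which the low values point to but do not settle. Levels are given in CPM, counts scaled to a common library size by the trimmed mean of M values. Fcgr3, which encodes part of the gated CD16/32, ranged from 125 to 311 CPM in KO GMP and 239 to 315 CPM in WT GMP, against 12.9 to 31.1 CPM in KO CMP and 36.6 to 115 CPM in WT CMP. Trappc1 measured 6.09, 24.1 and 25.2 CPM in KO GMP libraries 1, 3 and 4 and 30.9 to 41.3 CPM in WT GMP. It measured 5.56, 3.83, 11.7 and 13.4 CPM in KO CMP libraries 1 to 4 and 18.4 to 26.2 CPM in WT CMP, so it was lower in each KO library but at 0 in none. The KO libraries numbered 1 and 2 stood apart from the rest: KO GMP 1, KO CMP 1 and KO CMP 2 had 123, 109 and 204 CPM of Xist, a transcript of the inactive X chromosome, while none of the other 12 exceeded 2.17 CPM. Library numbers are therefore treated as 2 sets, numbers 1 and 2 and numbers 3 and 4, a division made after the data were seen. The labels do not link the numbers to a batch, and genotype and whatever else differs between these libraries cannot be told apart within a set. In numbers 1 and 2 each comparison of KO with WT sets KO libraries with Xist against WT libraries with at most 2.17 CPM. Genotype and sex, as far as Xist reports it, therefore cannot be told apart there. In numbers 3 and 4 no library of either genotype exceeded 0.305 CPM of Xist.

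Per kilobase of exon, the fatty acid genes Acly and Scd2 were the most abundant members and the range over all 32 was wide. Length here is the union of all annotated exons of a gene, 10.8 kb for Lss, so ranks between genes depend on the annotation. Acly, the ATP citrate lyase that supplies cytosolic acetyl-CoA, ranked 1 in each group, with mean levels of 61.7 ± 2.41 CPM per kb in KO GMP, 62.7 ± 4.70 in WT GMP, 52.4 ± 3.44 in KO CMP and 55.2 ± 8.45 in WT CMP (SD, n = 3, 4, 4 and 4). Scd2, a stearoyl-CoA desaturase, ranked 2 in each group, with mean levels of 57.2 ± 8.37, 56.2 ± 5.12, 47.1 ± 5.69 and 53.9 ± 3.07 CPM per kb in the same order, and its libraries overlapped those of Acly in each of the 4 groups. Its paralog Scd1 ranked 32 in each group, with mean levels of 0.119 CPM per kb in KO GMP, 0.0451 in WT GMP, 0.421 in KO CMP and 0.146 in WT CMP. Among sterol enzymes, Fdps, which makes farnesyl diphosphate, averaged 31.8 ± 10.8 CPM per kb in KO GMP, 34.6 ± 3.07 in WT GMP, 15.5 ± 6.94 in KO CMP and 20.8 ± 1.93 in WT CMP, and Lss, the lanosterol synthase, averaged between 1.16 and 1.22 CPM per kb in the 4 groups. Hmgcs1, the synthase that makes HMG-CoA, lay between 35.8 and 44.5 CPM over all 15 libraries.

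**Figure D1:**
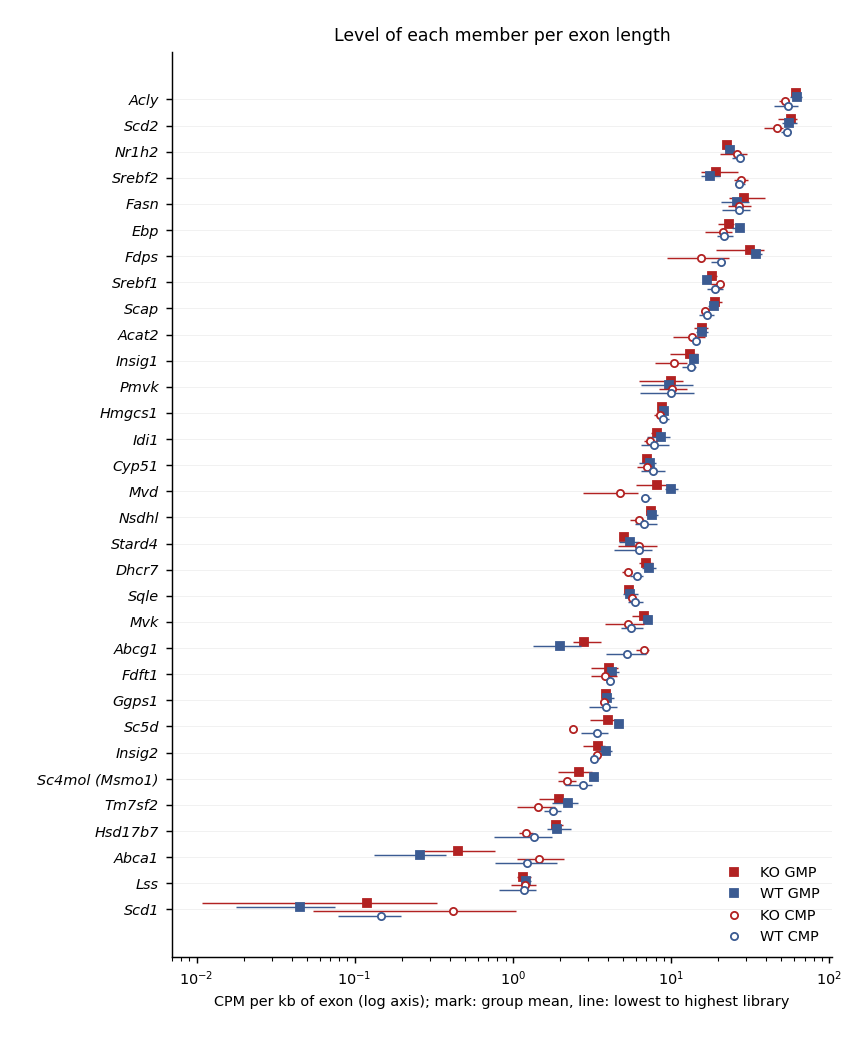
CPM per kb of exon (log axis) for the 32 members, sorted by their mean in WT CMP. Marks are group means and lines span the lowest to the highest library of KO GMP (n = 3), WT GMP, KO CMP and WT CMP (n = 4 each). Acly and Scd2 head the order and Scd1 ends it in each group.

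Start-site sequence is shown for Insig1, Sc4mol, Sc5d and Mvd, which were lower in KO CMP 1 and 2 below, and for Hmgcs1, which did not pass in any of the comparisons, as a contrast. Of the 32 members 25 had a window in the RefSeq table, 250 bases before to 50 bases after the start on GRCm38.p6, and Fdps and Abcg1 were among the 7 without one. The windows are Insig1 at chr5:28071162-28071461 on the plus strand, Msmo1 (Sc4mol) at chr8:64733529-64733828 on the minus strand, Sc5d at chr9:42264251-42264550 on the minus strand, Mvd at chr8:122443373-122443672 on the minus strand and Hmgcs1 at chr13:119690101-119690400 on the plus strand. Each is printed 5′ to 3′ on the gene's strand, and capitals mark the sterol regulatory element core TCACNCCAC and the CCAAT box, which binds the SREBP partner NF-Y, on either strand.
Insig1: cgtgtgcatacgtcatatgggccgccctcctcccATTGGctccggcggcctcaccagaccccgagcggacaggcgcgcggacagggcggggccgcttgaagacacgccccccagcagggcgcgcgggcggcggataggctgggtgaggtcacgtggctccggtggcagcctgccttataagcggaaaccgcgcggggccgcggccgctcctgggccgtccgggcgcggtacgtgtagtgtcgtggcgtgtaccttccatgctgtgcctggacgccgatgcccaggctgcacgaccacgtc
Msmo1: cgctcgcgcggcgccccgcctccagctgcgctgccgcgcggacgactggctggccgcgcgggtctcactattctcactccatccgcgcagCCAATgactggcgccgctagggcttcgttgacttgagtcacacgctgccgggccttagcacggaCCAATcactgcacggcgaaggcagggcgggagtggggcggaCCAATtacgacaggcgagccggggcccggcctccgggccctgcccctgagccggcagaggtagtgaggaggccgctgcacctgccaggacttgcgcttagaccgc
Sc5d: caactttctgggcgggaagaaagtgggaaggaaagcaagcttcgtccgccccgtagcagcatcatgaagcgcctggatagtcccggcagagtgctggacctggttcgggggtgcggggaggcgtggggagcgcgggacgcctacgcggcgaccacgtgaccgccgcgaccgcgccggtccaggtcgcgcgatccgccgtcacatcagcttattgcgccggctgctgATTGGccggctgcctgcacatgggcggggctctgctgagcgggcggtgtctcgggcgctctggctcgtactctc
Mvd: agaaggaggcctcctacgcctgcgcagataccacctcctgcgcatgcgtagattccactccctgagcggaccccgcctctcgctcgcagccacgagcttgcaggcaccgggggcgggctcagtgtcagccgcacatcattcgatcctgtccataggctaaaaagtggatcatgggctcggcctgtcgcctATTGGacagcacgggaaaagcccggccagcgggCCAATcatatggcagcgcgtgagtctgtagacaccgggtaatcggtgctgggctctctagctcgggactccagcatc
Hmgcs1: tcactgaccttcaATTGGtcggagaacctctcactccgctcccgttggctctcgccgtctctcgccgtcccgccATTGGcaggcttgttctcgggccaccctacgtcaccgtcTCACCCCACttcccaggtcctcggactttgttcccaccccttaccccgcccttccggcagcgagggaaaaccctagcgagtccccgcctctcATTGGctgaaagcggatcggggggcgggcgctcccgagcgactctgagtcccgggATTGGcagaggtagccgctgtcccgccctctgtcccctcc
A CCAAT box stood in 21 of the 25 member genes with a window, or 84%, against 42.4% of the 10566 tested genes with a window. The core TCACNCCAC stood in 1 of 25 members, Hmgcs1, where it began 137 bases before the start, against 1.45% of tested genes. The GC box GGGCGG stood in 21 of 25, or 84%, against 65.2% of tested genes. These are matches of letters in a short window and say nothing of binding.

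Over all libraries, KO against WT gave no edgeR call among the 32 members in either cell type. The few values that came nearest were lower in KO CMP, in a share near that of all genes. EdgeR's quasi-likelihood test called 0 members in CMP and 0 in GMP at an adjusted p under 0.05, where it called 0% of all tested genes in each. Trappc1, which was tested and lower in each KO library, was thus not called either, so the lack of calls says little about the members. At an unadjusted p under 0.05, 3 members were lower and 0 higher in KO CMP, against 6.92% lower and 4.68% higher of all genes, and 0 members in KO GMP, against 6.49% of all genes in either direction. DESeq2 called 1 member in CMP, Sc5d, which was lower, against 1.5% of all genes lower, and 0 in GMP, against 0.395%. The median log2 fold change of the members was -0.07 in CMP, beside 0.01 over all tested genes, and 23 of 32 were below 0. In GMP it was -0.04, beside 0.01, with 22 of 32 below 0. The KO effect in CMP minus that in GMP was called for 0 members, against 0% of all genes, with 0 members at an unadjusted p under 0.05, against 2.97% of all genes, and 0 called by DESeq2, against 0.0198%.

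Sc5d, the sterol desaturase of the last steps, measured 11.4, 11.3, 12.1 and 12.03 CPM in KO CMP libraries 1 to 4 and 19.5, 18.6, 15.4 and 13.1 CPM in WT CMP libraries 1 to 4. All 4 KO libraries lay below all 4 WT libraries, while the WT libraries numbered 3 and 4 came close to them. Its log2 fold change was -0.51 ± 0.14 (SE, edgeR adjusted p = 0.206). Mvd, the decarboxylase that makes isopentenyl diphosphate, measured 5.15, 7.65, 11.1 and 11.5 CPM in KO CMP and 13.9, 12.04, 12.1 and 13.0 CPM in WT CMP, again with no overlap. Its log2 fold change was -0.52 ± 0.21 (adjusted p = 0.363), and Mvd and Sc5d were the 2 of 32 members that lay below WT in this way, against 3.6% of all genes. Without KO CMP 1, KO CMP 2 and KO GMP 1 edgeR again called 0 members in both cell types.

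**Figure D2:**
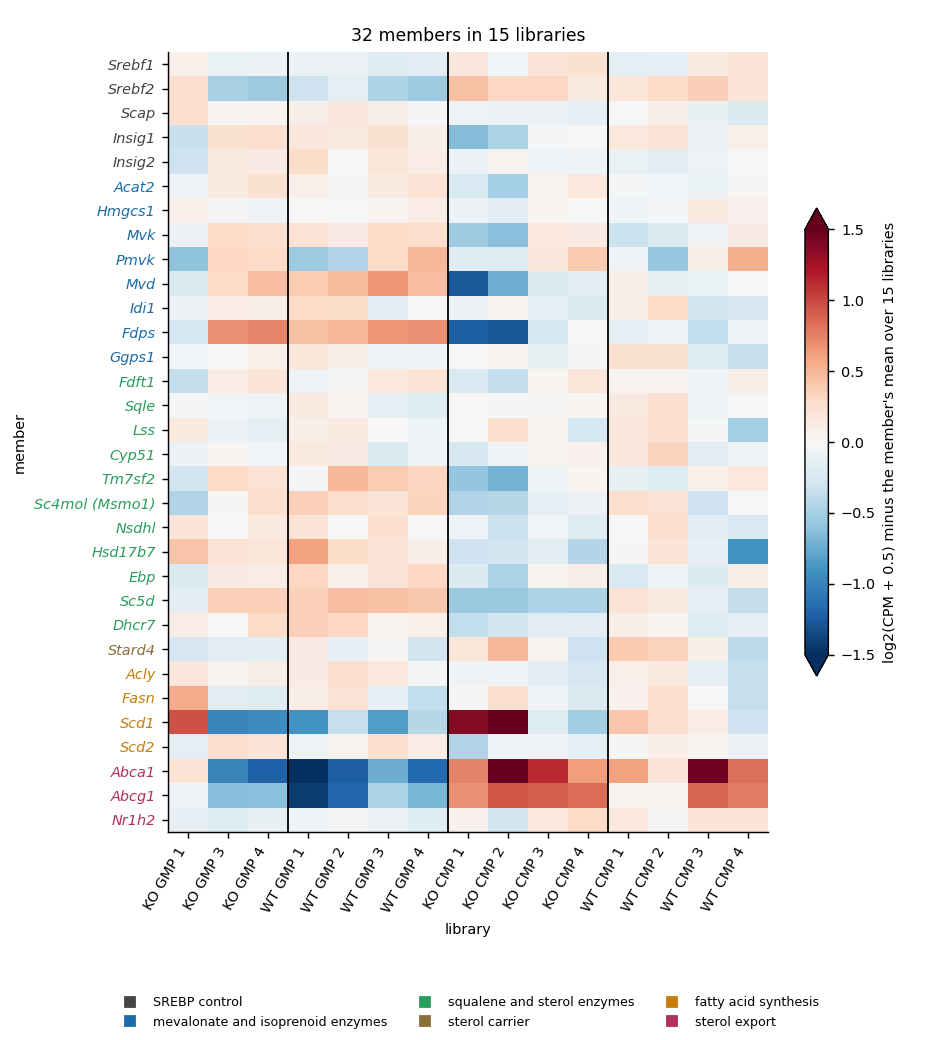
Colour gives log2(CPM + 0.5) of each member in each library minus that member's mean over the 15 libraries, with KO GMP, WT GMP, KO CMP and WT CMP parted by black lines. In the row of Fdps the columns KO CMP 1 and KO CMP 2 are the deepest blue, and Abca1 and Abcg1 are blue in most GMP libraries, apart from a pale red Abca1 in KO GMP 1, and red in most CMP libraries.

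Within numbers 1 and 2, KO CMP had less RNA of the sterol synthesis route than WT CMP, from the feedback gene Insig1 to the last enzymes. EdgeR called 11 members lower and 2 higher, against 10.2% of all genes lower and 8.23% higher. Of the 8 mevalonate and isoprenoid enzymes 4 fell and 0 rose, of the 11 squalene and sterol enzymes 6 fell and 0 rose, and of the 5 control genes 1 fell and 0 rose. Stard4 did not pass, 1 of 4 fatty acid genes rose and 1 of 3 export genes rose. The median log2 fold change was -0.21 over the 32 members, -0.27 over the mevalonate enzymes and -0.38 over the sterol enzymes, beside 0.01 over all genes.

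Insig1, at chr5:28071363-28078662, encodes the endoplasmic reticulum protein that retains Scap and is itself a target of SREBP. It measured 24.6 and 27.9 CPM in KO CMP 1 and 2 and 43.6 and 44.4 CPM in WT CMP 1 and 2. The KO libraries numbered 3 and 4, at 38.2 and 39.1 CPM, lay among the WT libraries numbered 3 and 4, at 36.6 and 41.0 CPM. In numbers 1 and 2 it fell by 0.74 ± 0.09 on the log2 scale (SE, adjusted p = 7.03e-05). The transcription factors themselves did not pass: Srebf2, the SREBP that drives sterol genes, had a log2 fold change of 0.14 and Srebf1, which leans to fatty acid genes, 0.20, while Scap stood at -0.13 and Insig2, the other retention gene, at 0.12.

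Fdps, at chr3:89093588-89101959, measured 41.6 and 40.01 CPM in KO CMP 1 and 2 and 88.6 and 93.0 CPM in WT CMP 1 and 2. Numbers 3 and 4 gave 81.3 and 98.5 CPM in KO CMP and 75.7 and 92.7 CPM in WT CMP, so the KO pair numbered 1 and 2 was the lowest of the 8 CMP libraries. The fall in that set was 1.15 ± 0.11 on the log2 scale (adjusted p = 9.74e-06), the change with the smallest p among the members. Mvd, at chr8:122433601-122443422, fell by 1.02 ± 0.16 (adjusted p = 0.000827). Acat2, a thiolase at the entry to the route, fell by 0.33 ± 0.10 (adjusted p = 0.034) and the mevalonate kinase Mvk by 0.33 ± 0.10 (adjusted p = 0.0382). Hmgcs1 (-0.08), the phosphomevalonate kinase Pmvk (0.11), the isomerase Idi1 (-0.22) and the geranylgeranyl diphosphate synthase Ggps1 (-0.21) did not pass.

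Among the sterol enzymes, Sc4mol, at chr8:64718139-64733792, measured 11.8 and 12.01 CPM in KO CMP 1 and 2 and 19.5 and 19.1 CPM in WT CMP 1 and 2. Numbers 3 and 4 gave 14.9 and 15.4 CPM in KO CMP and 13.2 and 16.3 CPM in WT CMP, so the WT libraries also differed between the number sets. Sc4mol fell by 0.70 ± 0.12 (adjusted p = 0.00139) and Sc5d, at chr9:42251595-42264256, by 0.75 ± 0.10 (adjusted p = 0.000188). The lanosterol demethylase Cyp51 fell by 0.41 ± 0.09, the last reductase Dhcr7 by 0.38 ± 0.09, the squalene synthase Fdft1 by 0.34 ± 0.10 and the sterol reductase Tm7sf2 by 0.53 ± 0.17, with adjusted p between 0.00823 and 0.0453. The 5 others, Sqle (-0.20), Lss (-0.09), Nsdhl (-0.32), Hsd17b7 (-0.44) and Ebp (-0.20), were all below 0 and did not pass. Nsdhl and Ebp lie on the X chromosome, and Xist differed between these libraries as given above; its part in their values was not tested.

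The 2 members that rose belong to fatty acid desaturation and sterol export. Scd1 measured 2.36 and 5.15 CPM in KO CMP 1 and 2 and 0.967 and 0.809 CPM in WT CMP 1 and 2, against 0.461 and 0.266 CPM in KO CMP 3 and 4 and 0.691 and 0.384 CPM in WT CMP 3 and 4. The KO pair numbered 1 and 2 was the highest of the 8, and the rise in that set was 2.08 ± 0.66 (adjusted p = 0.0477). This call was lost under 11 of 21 alternatives, among them leaving out KO CMP 2, WT CMP 1 or WT CMP 2. Scd1 is a major desaturase of fat tissue, and 11 of the 13 tested genes of a list of 15 adipocyte and stromal markers rose in the same comparison, against 0 that fell. Their summed level was 182 and 245 CPM in KO CMP 1 and 2 and 25.3 and 33.7 CPM in WT CMP 1 and 2. The stromal gene Cxcl12 alone gave 91.0 and 127 CPM in KO and 12.3 and 15.1 CPM in WT. The adipocyte gene Adipoq gave 4.51 and 6.23 CPM in KO and 0.575 and 0.262 CPM in WT. Cfd went the other way, at 0.380 and 0.273 CPM in KO and 0.930 and 0.464 CPM in WT. The adipocyte gene Lep was at 0 in these 4 libraries. The part of fat or stromal cells in the Scd1 result was not tested. Acly (-0.17), Fasn, the fatty acid synthase (-0.01), and Scd2 (-0.32) did not pass.

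Abcg1, an exporter that loads cholesterol onto lipoprotein particles, measured 44.2 and 52.9 CPM in KO CMP 1 and 2 and 28.5 and 28.2 CPM in WT CMP 1 and 2. Numbers 3 and 4 gave 51.9 and 49.4 CPM in KO CMP and 50.6 and 47.0 CPM in WT CMP. The 2 WT libraries numbered 1 and 2 were thus the ones that lay apart, below the other 6. Abcg1 rose by 0.78 ± 0.11 in KO numbers 1 and 2 (adjusted p = 0.000378). Abca1, the exporter to lipid-poor apolipoproteins, had 11.9 and 21.8 CPM in KO and 10.8 and 8.02 CPM in WT of that set (0.84 ± 0.34) and did not pass, nor did the liver X receptor gene Nr1h2 (-0.17). Macrophages are rich in both exporters. The summed level of 10 macrophage markers was 16.8 and 79.6 CPM in KO CMP 1 and 2 and 105 and 111 CPM in WT CMP 1 and 2, and most of the WT sum was Vcam1, which gave 8.14 and 31.9 CPM in KO and 93.9 and 101 CPM in WT. The other 9 markers summed to 8.66 and 47.7 CPM in KO CMP 1 and 2 and 11.03 and 10.2 CPM in WT CMP 1 and 2, so KO CMP 2 was the highest for them. Of the 9 tested genes 3 were higher in KO, Vcam1 was lower, and Marco was at 0 in these libraries. Their part in the exporter values was not tested.

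**Figure D3:**
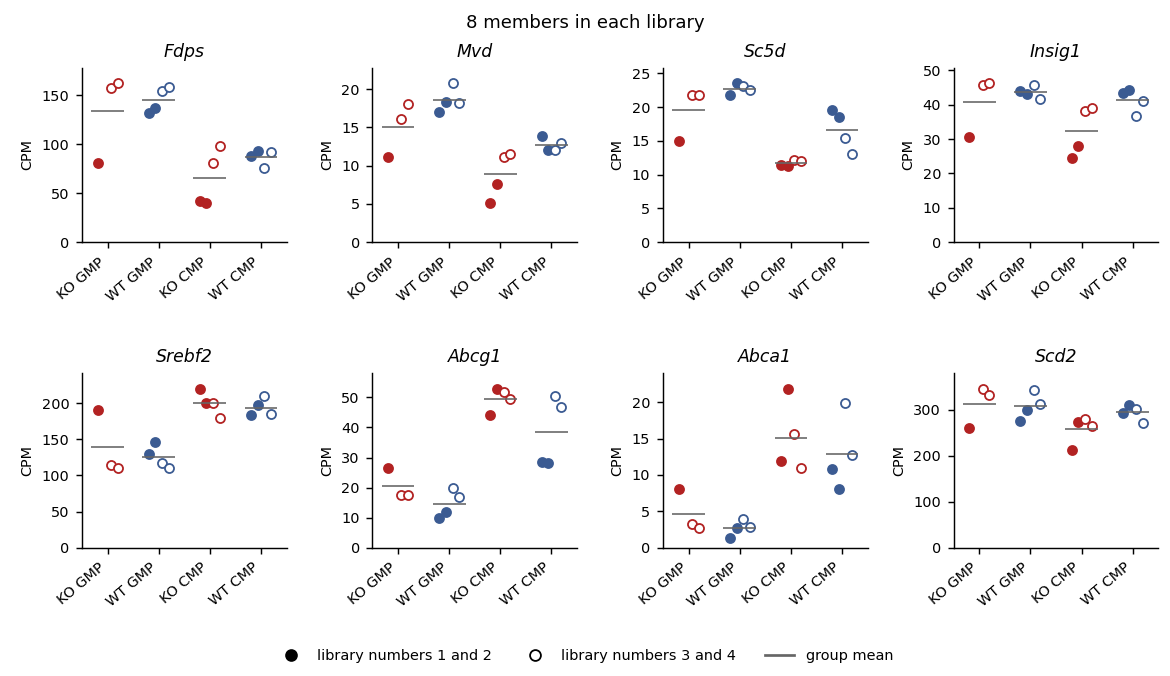
CPM of 8 members in each library, with KO in red and WT in blue, filled points for library numbers 1 and 2, open points for numbers 3 and 4, and a line at each group mean. Fdps, Mvd and Insig1 are lowest in the filled KO CMP points, whereas for Abcg1 the filled WT CMP points lie below the other CMP points.

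Set against the other 6 CMP libraries, KO CMP 1 and 2 lay below every one of them for 11 members (Insig1, Acat2, Hmgcs1, Mvk, Mvd, Fdps, Fdft1, Tm7sf2, Sc4mol, Sc5d and Dhcr7), against 11.2% of all genes, and above every one of them for Scd1, against 13.4% of all genes. Other genes moved with the same libraries. The summed level of 7 primary granule genes, markers of the path to granulocytes, was 4613 and 5248 CPM in KO CMP 1 and 2 and 22007 and 24392 CPM in WT CMP 1 and 2, with all 7 genes lower and none at 0. In numbers 3 and 4 it was 11760 and 12234 CPM in KO CMP and 11534 and 12429 CPM in WT CMP. The summed level of 8 erythroid markers was 462 and 314 CPM in KO CMP 1 and 2 and 156 and 171 CPM in WT CMP 1 and 2, with 4 of 8 higher, 0 lower and Hba-a1 at 0 in these libraries. Fcgr3 of the sort gate measured 12.9 and 18.8 CPM in KO CMP 1 and 2 and 99.5 and 115 CPM in WT CMP 1 and 2, with 31.1 and 28.1 CPM in KO CMP 3 and 4 and 36.6 and 39.3 CPM in WT CMP 3 and 4. On the first principal component of all tested genes, KO CMP 1 and 2 stood at -60.6 and -61.3 and WT CMP 1 and 2 at -16.2 and -14.7. KO CMP 3 and 4 stood at -36.4 and -35.4 and WT CMP 3 and 4 at -39.6 and -36.9. GMP libraries other than KO GMP 1 stood at 47.6 to 54.4. Fdps, Mvd, Sc5d and Dhcr7, called lower in KO CMP 1 and 2, were also called higher in KO GMP than in KO CMP. The part of these genes and of this shift in the sterol gene values was not tested. In sorted bulk cells fewer cells of a type and less RNA per cell cannot be told apart.

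In numbers 3 and 4, 0 members were called in CMP, against 0.00659% of all genes, with 1 member at an unadjusted p under 0.05 (Sc5d, -0.24 ± 0.10), against 11.4% of all genes, and 0 called by DESeq2, against 0.909% of all genes. The median log2 fold change was 0.04, beside -0.01 over all genes. Fdps had a log2 fold change of 0.10 ± 0.10 there and Sc4mol one of 0.04 ± 0.12. Trappc1 measured 11.7 and 13.4 CPM in KO CMP 3 and 4 and 18.8 and 25.2 CPM in WT CMP 3 and 4. In numbers 1 and 2 it measured 5.56 and 3.83 CPM in KO CMP and 18.4 and 26.2 CPM in WT CMP. The loss of Trappc1 RNA was thus smaller in numbers 3 and 4. The difference between the sets, numbers 1 and 2 minus numbers 3 and 4, was called for 7 members, 6 lower and 1 higher, against 4.59% of all genes lower and 3.05% higher. It was -1.25 ± 0.15 for Fdps (adjusted p = 0.000225), -0.74 ± 0.12 for Insig1 (adjusted p = 0.00246), -0.87 ± 0.23 for Mvd, -0.73 ± 0.17 for Sc4mol, -0.59 ± 0.13 for Cyp51, -0.51 ± 0.14 for Sc5d and 0.72 ± 0.16 for Abcg1. With the library number within each set as a term, numbers 1 and 2 gave 12 calls, 11 of them shared: Tm7sf2 (-0.53, adjusted p = 0.0522) and Scd1 (1.89, adjusted p = 0.0711) no longer passed and Scd2 (-0.33, adjusted p = 0.0113) did. The difference between the sets then kept its 7 calls and added Acat2 (-0.49, adjusted p = 0.0196). Fdps and Insig1 passed under every alternative tried, while the 13 calls of numbers 1 and 2 became 7 without WT CMP 1 or without WT CMP 2, and the 7 calls of the difference became 2 without WT CMP 2, 3 without KO CMP 4 and 4 without WT CMP 1 or WT CMP 3.

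In GMP numbers 1 and 2 there was 1 KO library, KO GMP 1, so its values describe that library and are no replicated KO effect. It had lower levels of some sterol genes and higher levels of the exporters than WT GMP 1 and 2. EdgeR, which takes the spread of a lone library from the other groups, placed 7 members lower and 4 higher, against 9% of all genes lower and 11% higher. These were 2 of the 5 control genes lower and 1 higher, 3 of the 8 mevalonate and isoprenoid enzymes lower, 2 of the 11 squalene and sterol enzymes lower, and 1 of 4 fatty acid genes and 2 of 3 export genes higher. No p-values are given for single genes here, and each SE carries the same assumption. The median log2 fold change of the members was -0.13, beside 0.0044 over all genes.

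Among the control genes, Srebf2 measured 191 CPM in KO GMP 1 and 130 and 146 CPM in WT GMP 1 and 2, while numbers 3 and 4 gave 115 and 111 CPM in KO GMP and 117 and 111 CPM in WT GMP. KO GMP 1 was the highest GMP library and lay within the 179.7 to 220.1 CPM of KO CMP and the 184 to 210.0 CPM of WT CMP. The log2 difference of KO GMP 1 from WT GMP 1 and 2 was 0.47 ± 0.11 (SE) for Srebf2. Insig1, by contrast, measured 30.7 CPM in KO GMP 1 and 43.9 and 43.1 CPM in WT GMP 1 and 2, a log2 difference of -0.50 ± 0.11, and that of Insig2 was -0.47 ± 0.15.

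Fdps measured 81.2 CPM in KO GMP 1 and 132 and 137 CPM in WT GMP 1 and 2, against 158 and 162 CPM in KO GMP 3 and 4 and 155 and 158 CPM in WT GMP 3 and 4. KO GMP 1 was the lowest GMP library by a wide margin, and its log2 difference was -0.73 ± 0.13. It was -0.79 ± 0.15 for Sc4mol, -0.60 ± 0.12 for Sc5d, -0.67 ± 0.20 for Mvd and -0.38 ± 0.12 for Idi1, which interconverts the isoprene units. Ebp (-0.42), Tm7sf2 (-0.56) and Fdft1 (-0.32) were below 0 and did not pass. With the library number within each set as a term there were again 11 calls, 9 of them shared, with Mvd and Idi1 lost and Ebp and Fasn added.

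Abca1 measured 8.04 CPM in KO GMP 1 and 1.37 and 2.65 CPM in WT GMP 1 and 2, with 3.21 and 2.71 CPM in KO GMP 3 and 4 and 3.93 and 2.80 CPM in WT GMP 3 and 4. Abcg1 measured 26.5 CPM in KO GMP 1 and 9.86 and 11.7 CPM in WT GMP 1 and 2, with 17.5 CPM in both KO GMP 3 and 4 and 19.7 and 16.8 CPM in WT GMP 3 and 4. For both exporters KO GMP 1 lay above the other 6 GMP libraries and below all 8 CMP libraries, apart from WT CMP 2, whose 8.02 CPM of Abca1 was about the same. The log2 difference from WT GMP 1 and 2 was 1.99 ± 0.43 for Abca1 and 1.29 ± 0.13 for Abcg1. Scd1 also passed, at 1.62 CPM in KO GMP 1 and 0.0865 and 0.368 CPM in WT GMP 1 and 2, which in WT is 5 and 26 units, so no fold is given.

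KO GMP 1 also differed from the other GMP libraries in the genes of the sort gate and in markers, and lay nearer to CMP. Fcgr3 measured 125 CPM in KO GMP 1 and 239 to 315 CPM in the other 6 GMP libraries, and Cd34 measured 547 CPM against 206 to 326 CPM in the other 6, with 525 to 747 CPM in CMP. On the first principal component of all tested genes KO GMP 1 stood at -6.77, the other GMP libraries at 47.6 to 54.4 and the CMP libraries at -61.3 to -14.7. The summed primary granule level was 21957 CPM in KO GMP 1, 44940 and 45535 CPM in KO GMP 3 and 4 and 39815 to 43451 CPM in WT GMP, and the erythroid sum was 119 CPM in KO GMP 1, 38.3 CPM in both KO GMP 3 and 4 and 32.9 to 35.3 CPM in WT GMP. The adipocyte and stromal sum was 89.0 CPM in KO GMP 1 and 7.13 and 10.3 CPM in WT GMP 2 and 1, with Cidec and Lep at 0 in these libraries. Of this sum Cxcl12 gave 48.7 CPM in KO GMP 1 and 2.35 and 1.54 CPM in WT GMP 1 and 2. The sum of the same 10 macrophage markers was 72.6 CPM in KO GMP 1 and 137 and 126 CPM in WT GMP 1 and 2, of which Vcam1 gave 33.0 CPM in KO and 118 and 110.1 CPM in WT. The other 9 markers ran the opposite way, at 39.6 CPM in KO GMP 1 and 19.3 and 16.2 CPM in WT GMP 1 and 2, with 5 of 9 tested genes higher, Vcam1 lower and none at 0 in KO GMP 1. The part of the gate and of these cells in the values of Srebf2, the exporters and the other members was not tested.

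In GMP numbers 3 and 4, 0 members were called, against 0.0132% of all genes, 0 members were at an unadjusted p under 0.05, against 5.2% of all genes, and DESeq2 called 0 members, against 0.283% of all genes. Trappc1 measured 24.1 and 25.2 CPM in KO GMP 3 and 4 and 30.9 and 33.3 CPM in WT GMP 3 and 4. In numbers 1 and 2 it measured 6.09 CPM in KO GMP 1 and 41.3 and 37.0 CPM in WT GMP 1 and 2. The loss of Trappc1 RNA was thus smaller in numbers 3 and 4. The difference between the sets rests on KO GMP 1 as well, so it too describes 1 KO library. It passed for 8 members, 5 lower and 3 higher, against 4.36% of all genes lower and 6.27% higher. It was -0.76 ± 0.17 for Fdps, -0.58 ± 0.14 for Insig1, -0.57 ± 0.15 for Idi1, -0.65 ± 0.19 for Sc4mol and -0.53 ± 0.15 for Sc5d. It was 1.35 ± 0.18 for Abcg1 and 2.17 ± 0.56 for Abca1, and Scd1 passed as well. With the library number within each set as a term Sc5d (-0.53) was lost and Srebf2 (0.51) added. Fdps and Abcg1 passed under every alternative tried, while the 11 calls of numbers 1 and 2 became 7 without WT GMP 1, and the 8 calls of the difference became 2 without KO GMP 4 or WT GMP 1, 3 without KO GMP 3, 4 without WT GMP 3 or WT GMP 4 and 5 without KO CMP 3 or KO CMP 4.

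**Figure D4:**
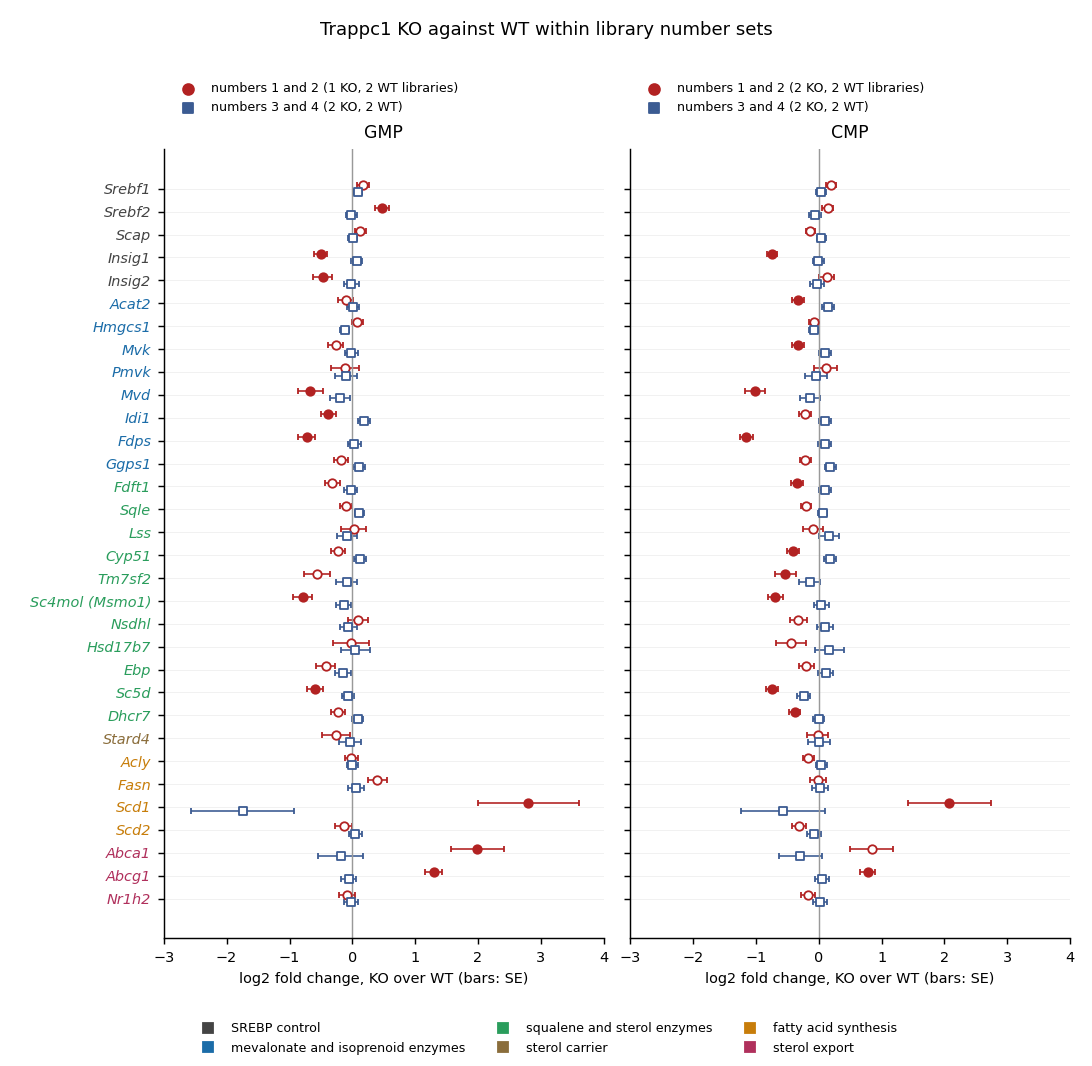
Log2 fold change of KO over WT for each member with its SE, in GMP (left) and CMP (right), for numbers 1 and 2 (red circles) and numbers 3 and 4 (blue squares). Filled marks passed an adjusted p of 0.05, and no mark of numbers 3 and 4 is filled; the red circles of GMP rest on 1 KO library.

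The number sets also parted WT libraries, which carry no Trappc1 knockout. In WT CMP, numbers 1 and 2 against 3 and 4 gave 8 members higher and 4 lower, against 12.3% of all genes higher and 10.6% lower, with a median log2 fold change of 0.15, beside -0.01 over all genes. Of the 11 squalene and sterol enzymes 5 were higher and 0 lower: Sc5d (0.42 ± 0.10), Sc4mol (0.39 ± 0.12), Cyp51 (0.37 ± 0.09), Sqle, the squalene epoxidase (0.23 ± 0.08), and Lss (0.48 ± 0.16). Idi1 (0.47 ± 0.09), Ggps1 (0.49 ± 0.09) and Acly (0.36 ± 0.09) were higher too, and Abcg1 (-0.78 ± 0.11), Pmvk (-0.63 ± 0.18), Mvk (-0.32 ± 0.10) and Srebf1 (-0.30 ± 0.08) were lower. With the library number within each set as a term there were 8 calls, 7 of them shared: Srebf1, Mvk, Pmvk, Sqle and Lss no longer passed, with adjusted p between 0.06 and 0.17, and Abca1 (-1.17, adjusted p = 0.023) did. The 12 calls became 3 without WT CMP 2, 5 without WT CMP 4 and 7 without WT CMP 1. In WT GMP 1 member was higher and 2 were lower, against 3.16% of all genes higher and 5.45% lower: Idi1 (0.38 ± 0.09), Abcg1 (-0.76 ± 0.12) and Pmvk (-0.92 ± 0.18). Under the same term Idi1 (0.34, adjusted p = 0.0922) no longer passed and Scd2 (-0.34, adjusted p = 0.0499) did.

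WT CMP 1 and 2 enter this comparison and that of KO with WT CMP in numbers 1 and 2 on opposite sides, so the values of both share those libraries. Between the WT sets and between KO and WT the log2 fold changes were 0.42 and -0.75 for Sc5d, 0.39 and -0.70 for Sc4mol, 0.37 and -0.41 for Cyp51, -0.78 and 0.78 for Abcg1 and -0.32 and -0.33 for Mvk. Fdps (0.11 ± 0.10), Insig1 (0.18 ± 0.09) and Mvd (0.05 ± 0.16) did not pass between the number sets of WT CMP. Pmvk followed the library number in both genotypes of GMP, with 10.7 CPM in KO GMP 1 and 11.1 and 12.1 CPM in WT GMP 1 and 2, and 20.5 and 20.3 CPM in KO GMP 3 and 4 and 20.3 and 23.6 CPM in WT GMP 3 and 4. In WT CMP the primary granule sum given above was likewise higher for numbers 1 and 2, where 7 of 7 genes rose against 3 and 4, and its part in these values was not tested.

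Between the cell types, the share of members that passed was near that of all genes or below it, so the values describe single genes. Abca1, Abcg1 and Srebf2 were lower in GMP than in CMP in both genotypes, and Sc5d was higher in both. In KO, edgeR called 4 members higher and 3 lower in GMP, against 10.7% of all genes higher and 10.5% lower. In WT it called 1 higher and 3 lower, against 11.3% of all genes higher and 14.2% lower. The median log2 fold change was 0.12 in KO, beside -0.02 over all genes, and 0.07 in WT, also beside -0.02. In the fit with library number as a block, 8 members were higher and 3 lower in KO, against 28.6% of all genes in either direction, and 7 higher and 3 lower in WT, against 34.2%.

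Srebf2, at chr15:82147181-82205379, measured 191, 115 and 111 CPM in KO GMP libraries 1, 3 and 4 and 220.1, 200.9, 200.6 and 179.7 CPM in KO CMP. In WT it measured 130, 146, 117 and 111 CPM in GMP and 184, 197, 210.0 and 186 CPM in CMP. In KO the GMP library numbered 1 lay among the CMP libraries, and the WT groups did not overlap. Srebf2 fell by 0.53 ± 0.16 in KO GMP (adjusted p = 0.0327) and by 0.62 ± 0.15 in WT GMP (adjusted p = 0.00823), each against CMP. Srebf1, Scap, Insig1 and Insig2 did not pass in either genotype.

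Abca1 fell by 1.70 ± 0.44 in KO GMP (adjusted p = 0.0138) and by 2.25 ± 0.41 in WT GMP (adjusted p = 0.00162), with 8.04, 3.21 and 2.71 CPM in KO GMP and 11.9, 21.8, 15.6 and 10.9 CPM in KO CMP. In WT it measured 1.37, 2.65, 3.93 and 2.80 CPM in GMP and 10.8, 8.02, 19.8 and 12.7 CPM in CMP. Abcg1 fell by 1.27 ± 0.27 in KO GMP (adjusted p = 0.00402) and by 1.41 ± 0.24 in WT GMP (adjusted p = 0.00115). For both exporters all GMP libraries lay below all CMP libraries of their genotype. The 10 macrophage markers summed to 72.6 to 155 CPM in KO GMP and 126 to 157 CPM in WT GMP, against 16.4 to 79.6 CPM in KO CMP and 20.1 to 111 CPM in WT CMP. Without Vcam1, the most abundant of them, they summed to 27.7 to 39.6 CPM in KO GMP and 16.2 to 34.8 CPM in WT GMP, against 8.66 to 47.7 CPM in KO CMP and 10.2 to 16.8 CPM in WT CMP. Of the 9 tested, 2 were higher in KO GMP, 1 in WT GMP and 0 lower in either, and their part in the exporter values was not tested.

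Of the enzymes, Sc5d measured 14.96, 21.8 and 21.8 CPM in KO GMP and 11.4, 11.3, 12.1 and 12.03 CPM in KO CMP, and rose by 0.74 ± 0.15 (adjusted p = 0.00311). In WT it measured 21.7, 23.5, 23.1 and 22.5 CPM in GMP and 19.5, 18.6, 15.4 and 13.1 CPM in CMP, and rose by 0.45 ± 0.14 (adjusted p = 0.028). No GMP library lay below a CMP library of its genotype. Fdps rose by 1.03 ± 0.29 in KO GMP (adjusted p = 0.0199), with a value of 0.74 ± 0.27 in WT (adjusted p = 0.059), and Mvd rose by 0.77 ± 0.23 in KO GMP (adjusted p = 0.0279), with 0.54 ± 0.21 in WT (adjusted p = 0.0765). Dhcr7 rose by 0.38 ± 0.11 in KO GMP (adjusted p = 0.0206) and stood at 0.26 ± 0.10 in WT (adjusted p = 0.0699). With the library number as a block, Fdps (0.71, adjusted p = 0.0262) and Mvd (0.53, adjusted p = 0.0433) passed in WT too, as did Mvk, Hsd17b7, Ebp and Acly, and in KO Scap, Hsd17b7, Acly and Scd2 were added. The difference between the genotypes is the interaction given above, which was called for 0 members.

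Primary granule genes were higher in GMP as well, with 7 of 7 in each genotype, and 5 of 8 cell cycle genes were higher in WT GMP and 2 of 8 in KO GMP; their part in the member values was not tested. The 7 calls in KO became 2 without KO GMP 4, 3 without KO GMP 3 and 4 without KO CMP 1, and the 4 calls in WT became 10 without the 3 libraries that stand apart and 7 without KO CMP 2. The share of all genes when libraries are left out is not given here, so these changes are not read as particular to the members. Sc5d and Abcg1 in KO, and Srebf2, Abca1 and Abcg1 in WT, passed under every alternative tried.

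**Figure D5:**
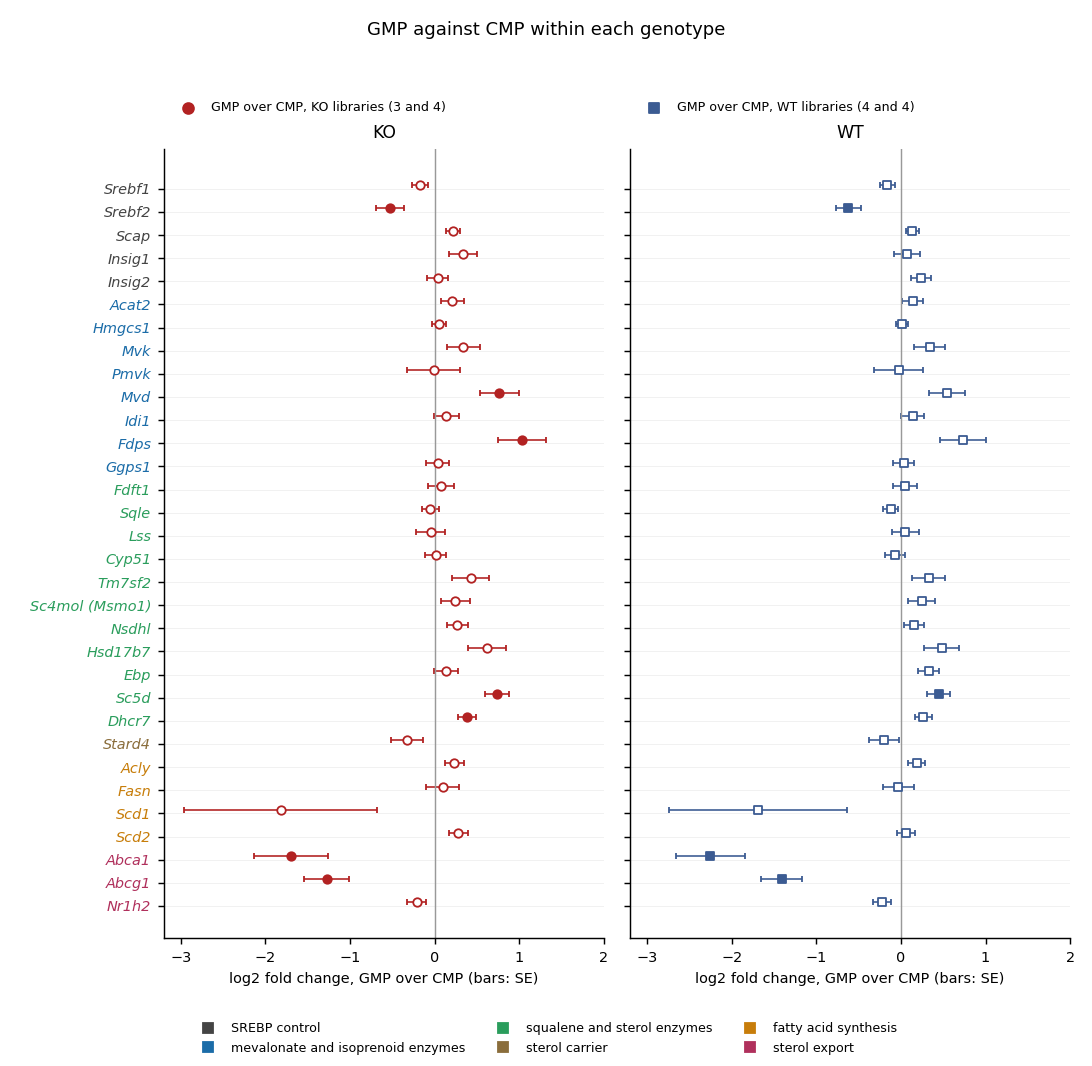
Log2 fold change of GMP over CMP for each member with its SE, in KO (left, 3 and 4 libraries) and WT (right, 4 and 4 libraries). Filled marks passed an adjusted p of 0.05: Srebf2, Abca1 and Abcg1 are filled and below 0 in both genotypes, and Sc5d is filled and above 0 in both.

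Other genes of the same pathways, 42 in all, passed in part. In CMP numbers 1 and 2, 8 of 42 rose and 10 fell in KO, against 8.23% of all genes higher and 10.2% lower. The diacylglycerol acyltransferase Dgat2, which makes storage fat, fell by 2.72 ± 0.17, the acyl-CoA synthetase Acsl1 by 0.64 ± 0.07, the lysosomal sterol carrier Npc2 by 0.66 ± 0.09 and Erlin1, a lipid raft protein of the endoplasmic reticulum, by 0.46 ± 0.08. The elongase Elovl6 rose by 0.65 ± 0.08, the acyl-CoA synthetase Acsl3 by 0.54 ± 0.08, the apolipoprotein Apoe by 0.57 ± 0.10 and the desaturase Fads1 by 0.48 ± 0.10. The median log2 fold change of the 42 was 0.01, the same as over all genes.

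For GMP numbers 1 and 2, 9 of the 42 passed as higher and 6 as lower in the single library KO GMP 1, against 11% of all genes higher and 9% lower. The log2 difference from WT GMP 1 and 2 was 1.92 ± 0.12 for the desaturase Fads2, 0.78 ± 0.10 for Elovl6, 0.94 ± 0.12 for Apoe and 1.49 ± 0.21 for the retinoid X receptor Rxra. It was -0.86 ± 0.12 for Npc2, -0.72 ± 0.10 for Erlin1, -0.87 ± 0.15 for the sterol acyltransferase Soat1 and -0.87 ± 0.20 for Dgat2. In numbers 3 and 4, 0 of 42 were called in either cell type, with 5 at an unadjusted p under 0.05 in CMP, against 11.4% of all genes, and 1 in GMP, against 5.2%, and 0 called by DESeq2. Between the cell types, 10 of 42 were higher in KO GMP and 6 lower, against 10.7% and 10.5% of all genes, and 12 were higher in WT GMP and 9 lower, against 11.3% and 14.2%. Apoe, an acceptor protein for exported sterol, fell by 1.31 ± 0.22 in KO GMP and by 1.33 ± 0.20 in WT GMP. Its list, the other sterol transport and liver X receptor genes, did not fall as a whole. With Apoe included it summed to 1198 to 1271 CPM in WT GMP and 1044 to 1164 CPM in WT CMP. In KO the sums were 998 to 1192 CPM in GMP and 881 to 1129 CPM in CMP.

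Some member values are uncertain because other genes share their exons, and the sources used here do not say whether strand was used in counting. Fdft1 shares 774 exon bases with Ctsb on the opposite strand, Fdps 1124 with Gm43738 on the same strand, Scap 985, Hmgcs1 557, Lss 381 and Idi1 323 with transcripts of the opposite strand and Tm7sf2 532 with Vps51 on the same strand. Nr1h2 has a named pseudogene, and Scd1 with Scd2, Idi1 with Idi2 and Acat2 with Acat3 are paralogs between which reads may be split.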

How the data were processed

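RNA from sorted CMP and GMP was sequenced after library preparation by the SMARTER mRNA-Seq kit, per the labels' protocols, and reads were aligned with HISAT to mm10, per the submitters' processing notes. The sources used here name no counting tool or annotation. The authors deposited 1 expected count (an estimated count) for each gene symbol, unscaled. Multiples of 4 made up 38.0% of the 40915 values between 1 and 40, where an even spread would give 25%, so 1 fragment may be worth about 4 units, but the reason was not established. Counts were rounded, and no duplicated libraries were found.

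Groups and numbers came from the sample titles. With R 4.3.3 and edgeR 4.0.16, filterByExpr on the 4 groups kept 15181 genes, libraries were scaled by TMM, and all 15 entered a quasi-likelihood fit, with 1 coefficient per group (11 residual degrees of freedom) or per group and number set (7). P-values are two-sided, Benjamini-Hochberg adjusted across every tested gene and called under 0.05. Adjusted p-values and SEs are from edgeR unless DESeq2 (1.42.0) is named. Same-numbered libraries deviated together in all 14 pairs of groups and numbers (correlations 0.199 to 0.516). A shift shared by the libraries of a number set would also give this. The same number was the best match in 9 of the 14, so pairing by number was not established. Library number entered as a block only among the alternatives.

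The members and all gene lists were chosen with earlier results of these data known. All members could be named. Of the other pathway genes, at most 4 per direction with the smallest p were named per comparison, apart from Apoe in GMP against CMP. Exon lengths and overlaps are from GENCODE M21 on GRCm38, and start-site windows are from RefSeq on GRCm38.p6. Alternatives were RLE size factors, no filter, DESeq2, counts divided by 4, a replicate block (added after the data were seen for the number sets) or number-set covariate, fits of 1 cell type, and leaving out libraries.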

Additional observations from a re-analysis of the deposited data

How the results depend on the processing

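No called member changed direction under any alternative that was run. Over all members, comparisons and alternatives, values of called members kept their side of the threshold in 1113 cases and lost it in 244, and values of members not called passed in 105 cases and moved by more than their SE in 138. KO against WT over all libraries called 0 members under the alternatives, apart from DESeq2 in CMP, which called 1. For GMP against CMP the replicate block gave 11 calls in KO and 10 in WT. In WT the number-set covariate also gave 10 and leaving out KO CMP 1, KO CMP 2 and KO GMP 1 gave 10. Within the number sets, a term for the number inside each set, chosen after seeing the data, leaves 5 residual degrees of freedom, and no other count of calls changed by over 1.5 times under a block.

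With only the libraries of the compared cell type, the difference between number sets gave 4 calls in CMP, and the number sets of WT gave 5 calls in WT CMP and 8 in WT GMP, where DESeq2 gave 7. Leaving out 1 library at a time gave 2 to 10 calls for GMP against CMP in KO and 3 to 7 in WT. It gave 7 to 13 calls for KO in CMP numbers 1 and 2, 7 to 12 in GMP numbers 1 and 2, 2 to 7 and 2 to 9 for the set differences in CMP and GMP, 3 to 13 between the sets of WT CMP and 1 to 4 between those of WT GMP. For most alternatives, here and above, the share of all genes called is not given. Changes in the counts may thus reflect calling over all genes. Sc5d in the set differences of CMP (16 of 21 alternatives) and GMP (14 of 20), Tm7sf2 in KO CMP numbers 1 and 2 (14 of 21) and Sqle and Lss between the sets of WT CMP (13 of 21 each) lost their call most often, and the causes were not tested. KO GMP 1 cannot be left out of its own set, which then holds no KO library. Low counts limit Scd1 in GMP.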
